A study of Homo sapiens with 12 samples.

Results

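VEGFA, ADM, BNIP3, BNIP3L, KDM3A, P4HA1 and NDRG1 are 7 genes known to be induced when cells lack oxygen. They were taken by symbol and chosen by their values in the RNA libraries described here, in which VEGFA was higher and ADM lower after treatment. All 7 are among the 6777 genes tested. Their RNA values are therefore given as a description, without a test. Tests are given for the ribosome footprints, which come from other libraries and were not named in the choice. The labels do not state that both kinds of library came from separate cultures, so these tests may not be independent of the choice.

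Hypoxia-inducible factors (HIFs) are transcription factors made of an oxygen-regulated alpha subunit and the constant partner ARNT. In oxygen, prolyl hydroxylases mark the alpha subunit for VHL, which sends it for destruction, and when oxygen is lacking HIF binds a short DNA core and raises genes for blood vessel growth, glycolysis, mitochondrial turnover and collagen processing. In breast tumours this programme is known for its links with angiogenesis and metastasis, and several of its targets, VEGFA among them, also answer to other stress pathways such as the one driven by ATF4.

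The cells were MDA-MB-231, a long-established line of human triple-negative breast cancer cells with mesenchymal features. All were grown in serum-containing medium at one incubator setting, with no low-oxygen arm, and received either the solvent DMSO or 10 nM AZD0095, an inhibitor of the lactate exporter MCT4, for 4 h. Each treatment has 3 RNA-seq libraries and 3 ribosome footprint libraries, 12 in all. The labels state cycloheximide, which halts ribosomes on mRNA, at 100 µg/ml for 2 min for the footprint libraries and do not state it for RNA, so footprints and RNA also differ in this agent. Within an assay the stated difference between groups is AZD0095. The labels do not state that the replicates were separate cultures, so p-values rest on a spread between libraries that may be only technical. The values are FPKM, the authors' fragment counts scaled for gene length and library size, and the genes tested are those above 1 FPKM in every library.

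Of 10 markers of mesenchymal breast lines, all 10 were tested, with VIM at 2522 and CD44 at 787 FPKM in DMSO. Of 11 hormone receptor, luminal and HER2 markers 6 were tested, and ESR1, PGR, GATA3, FOXA1 and CDH1 were not analysed here. The 6 were KRT8 at 232, KRT18 at 217, KRT19 at 129, XBP1 at 47.7, ERBB2 at 16.8 and EPCAM at 10.1 FPKM in DMSO. The summed RNA of those 6 was 641 to 670 FPKM in the DMSO and 727 to 765 FPKM in the AZD0095 libraries, and its part in the results was not tested. Of 14 fibroblast, endothelial and leukocyte markers, 0 were among the genes tested. On the first principal component of RNA (52.6% of the variance), the DMSO libraries ran from 4.00 to 12.4. AZD0095 replicate 1 was at -0.60 there and AZD0095 replicates 2 and 3 at -9.98 and -12.4. On the second principal component of RNA (28.5%), AZD0095 replicate 1 stood apart at 12.2. DMSO replicate 1 was next at 3.18, and the rest ran from -7.90 to -0.02. Among footprints, DMSO replicate 2 stood apart on the first component (56.1 against -18.9 to 2.95) and DMSO replicate 1 on the second (52.8 against -27.7 to 0.383). Footprint libraries were shallow, with an implied 123859, 107087 and 192323 reads in DMSO replicates 1, 2 and 3 and 141119, 217363 and 501346 in AZD0095, while RNA depth is unknown.

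HIF binds a short DNA core, and whether it acts near the starts of these genes was not tested. No sequence before the start was at hand for VEGFA, BNIP3L and NDRG1. The bases just before the start site are shown for ADM, the member lower in RNA, and for BNIP3 and P4HA1, whose RNA hardly differed. Each is the 250 bases upstream of the start in RefSeq, GRCh38.p14, read 5′ to 3′ on the gene's strand, and the capitals mark ACGTG or GCGTG, the letters of the HIF core, on either strand. GCGTG is also the core of the site bound by the aryl hydrocarbon receptor, so the motifs do not name a single factor.
ADM, chr11:10304823-10305072, plus strand: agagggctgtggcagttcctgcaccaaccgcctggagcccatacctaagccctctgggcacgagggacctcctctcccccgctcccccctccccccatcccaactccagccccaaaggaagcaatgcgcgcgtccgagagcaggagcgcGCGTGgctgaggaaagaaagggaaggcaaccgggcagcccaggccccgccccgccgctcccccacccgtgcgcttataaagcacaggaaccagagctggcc
BNIP3, chr10:131981924-131982173, minus strand: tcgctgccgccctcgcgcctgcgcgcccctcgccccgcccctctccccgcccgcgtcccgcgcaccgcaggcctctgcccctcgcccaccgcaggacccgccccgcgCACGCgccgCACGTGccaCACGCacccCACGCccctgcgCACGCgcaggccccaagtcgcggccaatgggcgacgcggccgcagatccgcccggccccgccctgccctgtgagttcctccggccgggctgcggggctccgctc
P4HA1, chr10:73096867-73097116, minus strand: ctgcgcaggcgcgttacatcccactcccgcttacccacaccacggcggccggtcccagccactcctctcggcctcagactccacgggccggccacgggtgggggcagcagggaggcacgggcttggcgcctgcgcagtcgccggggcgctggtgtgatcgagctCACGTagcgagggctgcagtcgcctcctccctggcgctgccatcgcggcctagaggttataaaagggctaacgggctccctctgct

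The ADM window held GCGTG 1 time and ACGTG 0 times. That of BNIP3 held GCGTG 4 times and ACGTG 2 times, the 2 being both strands of a single palindrome. That of P4HA1 held ACGTG 1 time and GCGTG 0 times, and KDM3A, with a pair of annotated starts, held 1 GCGTG and 0 ACGTG before each. Of all 35116 RefSeq windows of this length, 18.5% held ACGTG, 32.2% GCGTG and 43.2% either, so matches are common and are a description of the letters only.

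VEGFA encodes the main growth factor for new blood vessels. Its RNA was at 37.5, 35.8 and 40.1 FPKM in DMSO replicates 1, 2 and 3 and at 59.8, 75.3 and 73.0 FPKM in AZD0095. The lowest AZD0095 library lay well above the highest DMSO library, so the groups did not overlap. The mean went from 37.8 ± 2.17 to 69.4 ± 8.37 FPKM (SD, n = 3), 1.84 times the DMSO level, and the difference on the log2(FPKM + 1) scale was 0.85 ± 0.09 (SE). By that measure VEGFA ranked 17 among all genes tested, counted from the largest rise. The gene lies on chromosome 6 from 43770211 to 43786487 in GRCh38 (ENSG00000112715).

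ADM encodes adrenomedullin, a peptide that widens blood vessels and, like VEGFA, is a much used readout of hypoxia. Its RNA was at 47.2, 49.1 and 48.3 FPKM in DMSO replicates 1, 2 and 3 and at 22.9, 22.1 and 24.3 FPKM in AZD0095. Both groups were tight and far apart. The mean went from 48.2 ± 0.942 to 23.1 ± 1.14 FPKM (SD, n = 3), 0.479 times the DMSO level, and the difference was -1.03 ± 0.06 on the log2(FPKM + 1) scale (SE). ADM ranked 3 among all genes tested, counted from the largest fall. It lies on chromosome 11 from 10305073 to 10307397 (ENSG00000148926). The libraries are bulk, so fewer cells that express a gene and less RNA per cell cannot be told apart.

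The other 5 members were all slightly higher on average. BNIP3 encodes a mitochondrial outer membrane protein of the BCL2 family that recruits the autophagy machinery to mitochondria. Its RNA was at 87.1, 77.9 and 74.2 FPKM in DMSO and 100.0, 82.5 and 78.8 FPKM in AZD0095, replicates 1 to 3. The groups overlapped, and the replicate 1 library was the highest of both. The log2 difference was 0.12 ± 0.10 (SE), 0.019 without AZD0095 replicate 1 and 0.08 with replicates 2 and 3 only. RefSeq lists 46 numbered pseudogenes of BNIP3, 0 of them among the genes tested, and how reads shared with them were counted is not stated in the labels, so its level is uncertain.

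BNIP3L, also called NIX, is the relative of BNIP3 that clears mitochondria from maturing red cells. Its RNA was at 60.9, 51.6 and 48.4 FPKM in DMSO and 67.5, 53.2 and 53.9 FPKM in AZD0095. Here too the groups overlapped and replicate 1 was highest in both, with a log2 difference of 0.11 ± 0.11 (SE). It was 0.0051 without AZD0095 replicate 1 and 0.21 without DMSO replicate 1. BNIP3 lies on chromosome 10 from 131967684 to 131981923 (ENSG00000176171) and BNIP3L on chromosome 8 from 26383054 to 26413127 (ENSG00000104765).

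KDM3A, a histone demethylase that needs oxygen for its reaction and removes a repressive lysine methylation, had the lowest RNA of the 7. It was at 8.22, 8.22 and 7.67 FPKM in DMSO and 11.4, 10.4 and 9.11 FPKM in AZD0095. The groups did not overlap. Mean levels were 8.04 ± 0.322 and 10.3 ± 1.12 FPKM (SD, n = 3), differing by 0.32 ± 0.09 in log2 (SE), next in size among the members after ADM and VEGFA. Its gene spans chromosome 2 from 86437044 to 86492716 (ENSG00000115548).

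P4HA1, a catalytic subunit of the enzyme that hydroxylates proline in collagen, was at 29.9, 27.7 and 29.3 FPKM in DMSO and 35.0, 32.4 and 28.9 FPKM in AZD0095. AZD0095 replicate 3 lay within the DMSO range, and the log2 difference was 0.14 ± 0.08 (SE). NDRG1, a stress-responsive protein linked to differentiation and to suppression of metastasis, was at 28.4, 29.3 and 29.3 FPKM in DMSO and 30.9, 31.1 and 34.0 FPKM in AZD0095. Its groups did not overlap although they differed by only 10.2% of the DMSO mean, a log2 difference of 0.14 ± 0.06 (SE). P4HA1 lies on chromosome 10 from 73007217 to 73096866 (ENSG00000122884) and NDRG1 on chromosome 8 from 133237175 to 133297252 (ENSG00000104419).

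**Figure D1:**
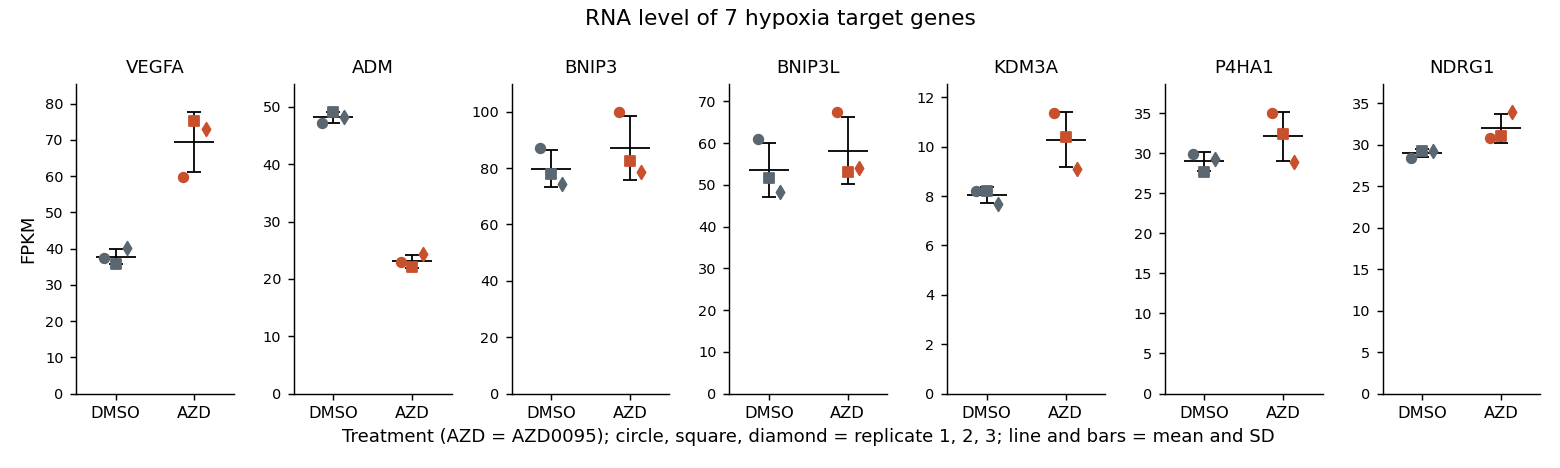
RNA level in FPKM (vertical axes, each from 0) of the 7 genes in DMSO and AZD0095, with replicates 1, 2 and 3 as circle, square and diamond and the mean and SD as lines. VEGFA moved from 35.8 to 40.1 up to 59.8 to 75.3 FPKM and ADM from 47.2 to 49.1 down to 22.1 to 24.3 FPKM, while BNIP3, BNIP3L and P4HA1 overlapped between treatments.

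The RNA groups did not overlap for VEGFA, KDM3A and NDRG1 on the higher side and for ADM on the lower side, against 17.7% and 11.5% of all genes tested. Compared by replicate number, 5 of the 7 members were higher with AZD0095 in all 3 pairs and ADM was lower in all 3, where 30.7% of all genes were higher and 26.6% lower in all 3. Since this contrast chose the members, nothing is read from these counts. Over all genes limma called 545 or 8.04% at an adjusted p under 0.05, 5.03% higher and 3.01% lower. With replicates 2 and 3 only, VEGFA stood at 0.95, ADM at -1.04, KDM3A at 0.27, NDRG1 at 0.15, P4HA1 and BNIP3L at 0.10 and BNIP3 at 0.08 on the log2 scale. The pair of replicate 1 libraries alone gave 0.66 for VEGFA, -1.01 for ADM and 0.42 for KDM3A.

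In DMSO the members ranked, by mean RNA FPKM, as BNIP3 (79.8), BNIP3L (53.6), ADM (48.2), VEGFA (37.8), NDRG1 (29.0), P4HA1 (29.0) and KDM3A (8.04). The neighbours BNIP3L and ADM, and NDRG1 and P4HA1, overlapped between libraries. With AZD0095 the order became BNIP3 (87.1), VEGFA (69.4), BNIP3L (58.2), P4HA1 (32.1), NDRG1 (32.0), ADM (23.1) and KDM3A (10.3). VEGFA and BNIP3L overlapped there, as did P4HA1 and NDRG1. ADM thus went from above VEGFA in every DMSO library to below NDRG1 and P4HA1 in every AZD0095 library.

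Ribosome footprints, the mRNA fragments shielded by translating ribosomes, were used to ask whether VEGFA was also higher relative to ADM there. Such a ratio also rises if VEGFA alone rises or ADM alone falls, so it does not show opposite movement. The ratio of VEGFA to ADM within a library needs no scaling between libraries. As log2 of (FPKM + 1) it was -2.09, -4.02 and -2.06 in DMSO replicates 1, 2 and 3 and -1.21, -1.33 and -1.01 in AZD0095. Every AZD0095 library lay above every DMSO library. The mean went from -2.72 ± 1.12 to -1.19 ± 0.161 (SD, n = 3), a difference of 1.53 with a two-sided exact permutation p of 0.1, the smallest that 3 against 3 libraries can give. Without DMSO replicate 2, the lowest library, the difference was 0.89, and the groups still did not overlap. In RNA the same ratio went from -0.34 ± 0.0933 to 1.54 ± 0.189 (SD, n = 3), a difference of 1.89 given as a description.

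**Figure D2:**
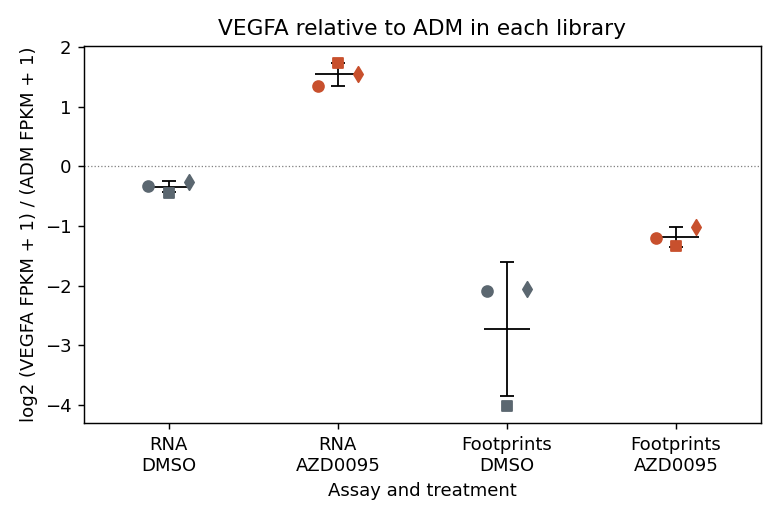
VEGFA relative to ADM in each library, as log2 of the ratio of (FPKM + 1) on the vertical axis, for RNA and footprints under DMSO and AZD0095, with replicates 1, 2 and 3 as circle, square and diamond and the mean and SD as lines. AZD0095 lay above DMSO in both assays, by 1.89 in RNA and 1.53 in footprints, and the DMSO footprint libraries spread from -4.02 to -2.06.

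Taken gene by gene, VEGFA footprints were at 103, 28.5 and 35.9 FPKM in DMSO and 100.4, 79.4 and 60.3 FPKM in AZD0095. DMSO replicate 1 was above every AZD0095 library, so the groups overlapped. The log2 difference was 0.71 ± 0.52 (SE, limma adjusted p = 0.78; 95% interval -0.42 to 1.85). It was 1.27 without DMSO replicate 1 and 0.36 without DMSO replicate 2. Behind these values stood 3.05 to 30.3 implied reads per kilobase.

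ADM footprints were at 442, 477 and 152 FPKM in DMSO and 234, 202 and 123 FPKM in AZD0095. DMSO replicates 1 and 2 were the highest libraries, but DMSO replicate 3 lay inside the AZD0095 range, so the groups overlapped. The log2 difference was -0.82 ± 0.42 (SE, limma adjusted p = 0.68; 95% interval -1.74 to 0.10). It was -1.35 without DMSO replicate 3 and -0.53 without DMSO replicate 2. ADM had 29.3 to 61.6 implied reads per kilobase, so it was better covered than VEGFA. For both genes the footprint interval contains the RNA difference as well as 0.

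KDM3A had the largest footprint difference of the members. Its footprints were at 6.06, 8.63 and 13.6 FPKM in DMSO and 55.9, 24.4 and 31.8 FPKM in AZD0095. The groups did not overlap, the lowest AZD0095 library being above the highest DMSO library. Mean levels were 9.43 ± 3.83 and 37.4 ± 16.5 FPKM (SD, n = 3), differing by 1.86 ± 0.58 in log2 (SE, 95% interval 0.61 to 3.11). The unadjusted p from limma was 0.0071 and the adjusted p 0.63, so it did not pass, and with replicates 2 and 3 only the difference was 1.28. The DMSO libraries gave KDM3A 0.751, 0.924 and 2.61 implied reads per kilobase and the AZD0095 libraries 7.90, 5.29 and 15.9, and the mean implied depth of the AZD0095 libraries was 2.03 times that of DMSO, whose part in the result was not tested.

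BNIP3 footprints were at 56.5, 81.6 and 100.0 FPKM in DMSO and 124, 137 and 112 FPKM in AZD0095. These groups did not overlap either, in contrast to the RNA values. Of the members, BNIP3 was the one whose reads could be recovered: at an implied length of 572 bases every library fell within 0.05 of an integer, giving 4, 5 and 11 reads in DMSO and 10, 17 and 32 in AZD0095. The log2 difference was 0.67 ± 0.36 (SE, limma adjusted p = 0.70; 95% interval -0.12 to 1.46), and 0.45 without DMSO replicate 1.

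NDRG1 footprints were at 477, 160 and 288 FPKM in DMSO and 550, 303 and 543 FPKM in AZD0095. The groups overlapped, with DMSO replicate 1 above AZD0095 replicate 2, and the log2 difference was 0.68 ± 0.38 (SE, limma adjusted p = 0.70; 95% interval -0.15 to 1.5). It ran from 0.28 without DMSO replicate 2 to 1.06 without DMSO replicate 1. P4HA1 was at 34.6, 41.4 and 32.9 FPKM in DMSO and 34.7, 53.5 and 59.4 FPKM in AZD0095. Its groups overlapped, with a log2 difference of 0.40 ± 0.47 (SE, limma adjusted p = 0.88; 95% interval -0.62 to 1.42).

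BNIP3L was the member whose footprints moved least. They were at 199, 235 and 216 FPKM in DMSO and 162, 202 and 245 FPKM in AZD0095, with the AZD0095 libraries on both sides of the DMSO range. The log2 difference was -0.11 ± 0.28 (SE, limma adjusted p = 0.95; 95% interval -0.72 to 0.50). Without AZD0095 replicate 1 it was 0.04, on the other side of 0.

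**Figure D3:**
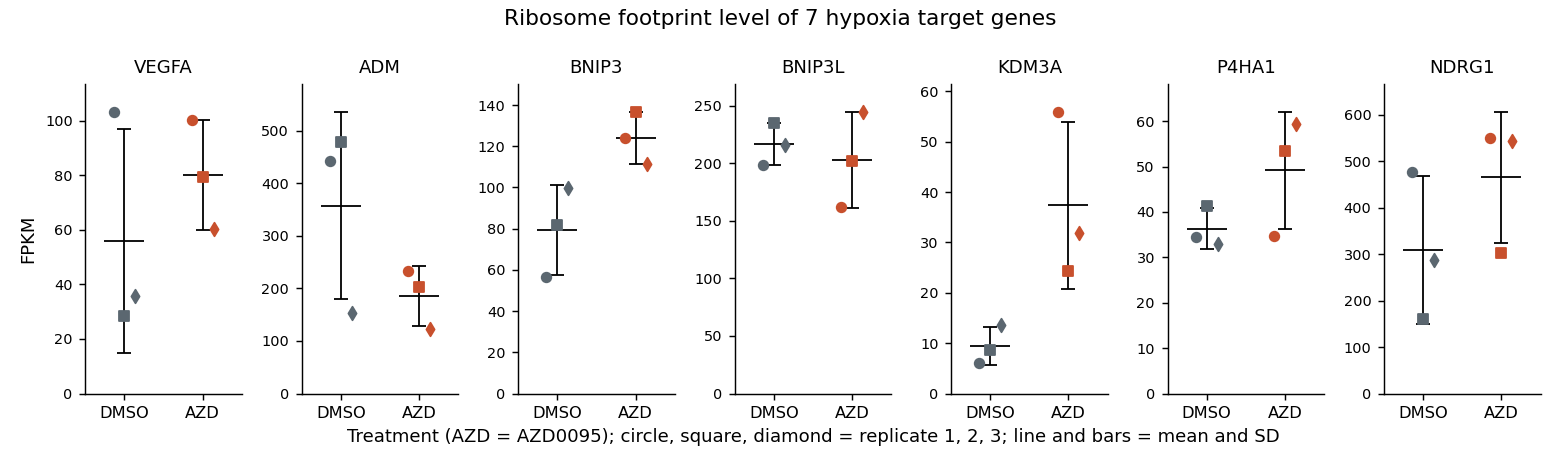
Ribosome footprint level in FPKM (vertical axes, each from 0) of the 7 genes in DMSO and AZD0095, with replicates 1, 2 and 3 as circle, square and diamond and the mean and SD as lines. KDM3A (6.06 to 13.6 against 24.4 to 55.9 FPKM) and BNIP3 (56.5 to 100.0 against 112 to 137 FPKM) did not overlap, and the other 5 did.

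Of the 7 members, 0 were called in footprints, where limma called 0 or 0% of all 6777 genes and 530 or 7.82% had an unadjusted p under 0.05, 1 of the 7 members among them. The 2 members whose footprint groups did not overlap, BNIP3 and KDM3A, were both higher with AZD0095, against 7.19% of all genes higher and 5.77% lower. The median within-group SD of a gene was 0.53 in DMSO and 0.43 in AZD0095 for footprints, against 0.09 and 0.10 for RNA, on the log2 scale.

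**Figure D4:**
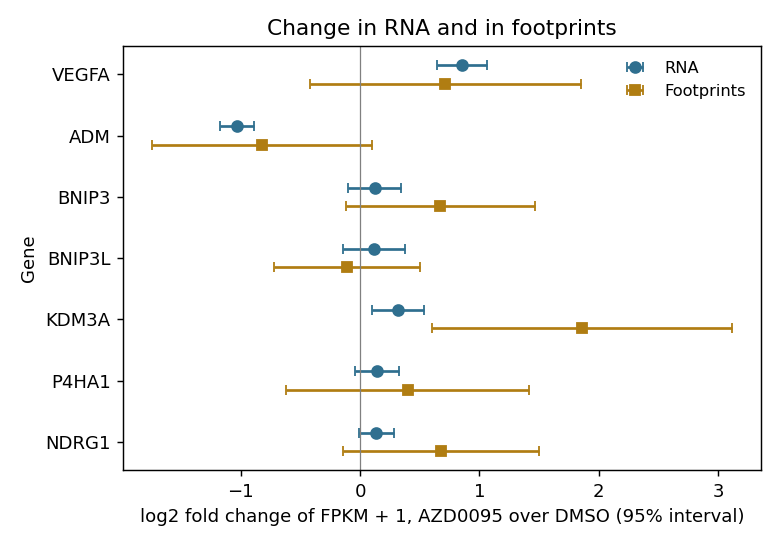
Log2 fold change of FPKM + 1, AZD0095 over DMSO (horizontal axis), in RNA (circles) and footprints (squares) for the 7 genes, with 95% intervals from limma. The members were chosen by their RNA, so the RNA intervals are a description and no test, with VEGFA at 0.85 and ADM at -1.03. In footprints the interval of KDM3A (0.61 to 3.11) is the one that does not contain 0, before adjustment over all genes.

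The members also differed in the ratio of footprint to RNA FPKM. The gene length that entered FPKM in each assay is not stated, and its part in differences between genes was not tested. In DMSO the ratio of mean footprint to mean RNA FPKM was 10.6 for NDRG1 and 7.41 for ADM, at the 96.6 and 91.9 percentile of all genes, whose median was 2.43. BNIP3L was at 4.04 (74.4 percentile). VEGFA (1.48, 25.8 percentile), P4HA1 (1.25, 19.7), KDM3A (1.17, 17.5) and BNIP3 (0.995, 12.5) lay below the median. The ratio of single DMSO footprint libraries to the mean RNA ran from 3.16 to 9.90 for ADM and from 0.754 to 2.73 for VEGFA, so these ranges did not overlap. ADM footprints exceeded VEGFA footprints in every library of both treatments, even where VEGFA had more RNA. With AZD0095, VEGFA was at 1.15 (14.4 percentile), ADM at 8.06 (94.7) and KDM3A at 3.63 (71.6). The DMSO ratio of KDM3A rests on 0.751 to 2.61 implied footprint reads per kilobase.

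Footprint change less RNA change, the change in translational efficiency, is given as a description since it contains the RNA contrast. It was -0.14 ± 0.53 for VEGFA, 0.21 ± 0.51 for ADM, 0.55 ± 0.30 for BNIP3, -0.22 ± 0.27 for BNIP3L, 1.54 ± 0.52 for KDM3A, 0.26 ± 0.35 for P4HA1 and 0.54 ± 0.46 for NDRG1 on the log2 scale (SE). For VEGFA and ADM the value was smaller than its error, and its sign turned without single footprint libraries: VEGFA was at 0.41 without DMSO replicate 1 and 0.04 without AZD0095 replicate 3, and ADM at -0.32 without DMSO replicate 3.

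The remaining HIF pathway was taken from 3 lists with 76 genes besides the members, of which 51 were tested in RNA. The test called 7 of them higher and 0 lower and left 44 uncalled, beside 8.04% called over all genes. The median change was 0.04 on the log2 scale, against 0.01 over all genes. These lists were chosen with earlier results of these data known, so their counts are a description. DDIT4, an inhibitor of mTORC1 signalling, rose from 12.1 ± 1.86 to 60.1 ± 2.36 FPKM (SD, n = 3), or by 2.23 ± 0.10 in log2 units (SE; adjusted p = 6.0e-05 by limma). VLDLR, a lipoprotein receptor, rose from 7.91 ± 1.00 to 20.2 ± 0.476 FPKM (1.25, adjusted p = 2.9e-04), and the glucose transporter SLC2A3 from 5.92 ± 0.561 to 11.1 ± 0.826 FPKM (0.81, limma adjusted p = 0.0030). All 3 were still called with any 1 RNA library left out.

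Among 12 tested genes of oxygen sensing and the HIF subunits, 2 rose and 10 were not called (median 0.03). EPAS1, an oxygen-regulated alpha subunit, rose by 0.46 in log2, from 8.27 ± 0.128 to 11.7 ± 0.281 FPKM (SD, n = 3, with a limma adjusted p of 0.0092), and ARNT, the shared partner, from 11.5 ± 0.350 to 15.3 ± 0.447 FPKM (0.38, adjusted p = 0.017). HIF1A, another alpha subunit, was at 67.5 ± 6.97 and 90.5 ± 19.2 FPKM and was not called (0.40, limma adjusted p = 0.12). CUL2, of the VHL ubiquitin ligase, was at -0.30 (limma adjusted p = 0.25). The labels name no batch, and an alternative fit set replicate 1 of both groups apart as if it were one. In it limma called 1660 of all 6777 genes, against 545 without it. HIF1A was then called higher (limma adjusted p = 0.0014) and CUL2 (0.024), CREBBP (0.043) and CITED2 (0.047) lower. CREBBP and CITED2 were named once their values were known. The call of EPAS1 was lost without DMSO replicate 2 or AZD0095 replicate 2 (adjusted p of at most 0.063), and that of ARNT without replicate 2 or 3 of either group (at most 0.09).

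Of 18 tested glycolysis and glucose entry targets, 3 rose and 15 were not called, at a median of 0.07. Beside SLC2A3 these were the regulator PFKFB3 (0.39, limma adjusted p = 0.014) and the hexokinase HK1 (0.28, adjusted p = 0.041), and the neuronal enolase ENO2 did not pass at 0.29 (0.062). PFKFB3 lost its call without DMSO replicate 2 or AZD0095 replicate 2 or 3 (at most 0.088), and HK1 without any RNA library but AZD0095 replicate 1 (at most 0.14), with median centring, with quantile normalization and without the variance trend. Of 21 other targets 2 rose, DDIT4 and VLDLR, and 19 were not called, at a median of -0.02. The fucosyltransferase FUT11 was at -0.42 (adjusted p = 0.056) and EDN1, the vessel-constricting peptide endothelin, at -0.28 (0.057). With replicate 1 as a batch, FUT11 (limma adjusted p = 0.0047), EDN1 (0.012) and CXCR4 (0.012) were called lower and ENO2 (0.012) higher. CXCR4 was named after its values were seen. Of the 51 pathway genes, 15 were called from replicates 2 and 3 only, 9 higher and 6 lower, beside 1395 of all 6777. With replicate 1 as a batch the number was 16, 9 higher and 7 lower, beside 1660 of all genes. It was 3 without DMSO replicate 2 or AZD0095 replicate 2, beside 100 and 116 of all genes. Without AZD0095 replicate 3 it was 4, beside 214, and without AZD0095 replicate 1 it was 11, beside 1112.

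**Figure D5:**
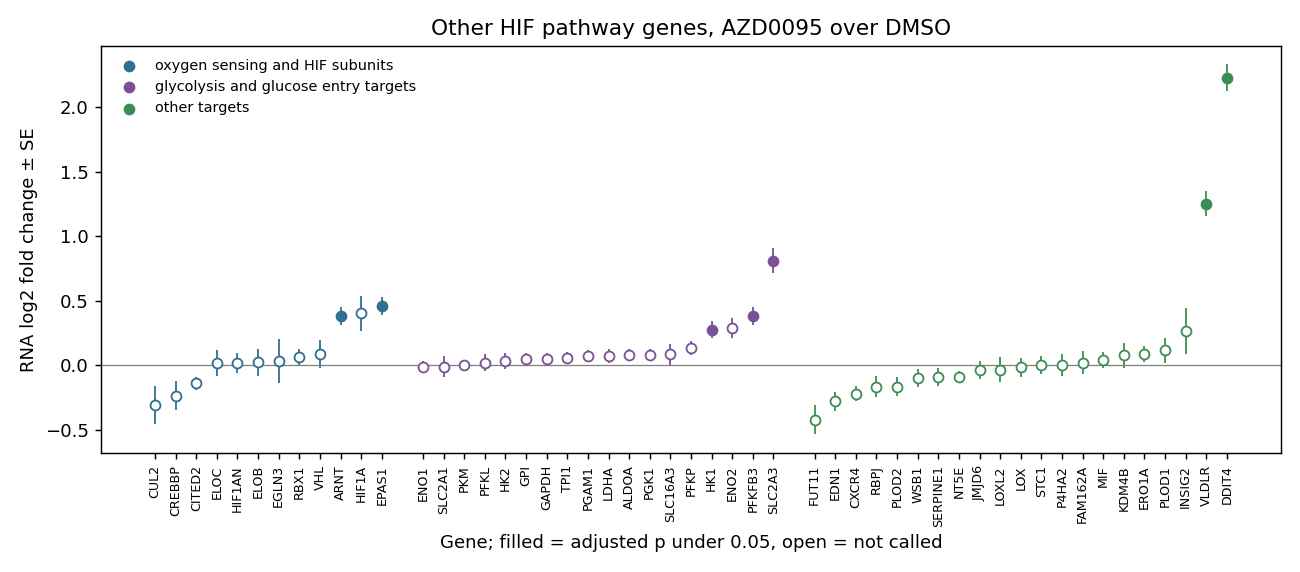
RNA log2 fold change ± SE (vertical axis) of 51 other HIF pathway genes in 3 lists, each ordered from lowest to highest, with filled points for an adjusted p under 0.05. DDIT4 (2.23), VLDLR (1.25) and SLC2A3 (0.81) stand above the rest, and 44 of the 51 were not called.

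In footprints 0 of these 51 genes were called by limma, 3 had an unadjusted p under 0.05 and the median was 0.11 against 0.04 over all genes. DDIT4 was at 1.68 (limma adjusted p = 0.31) and VLDLR at 1.47 (0.68) on the log2 scale. Of the other genes called higher in RNA, SLC2A3 was at 0.78, HK1 at 0.60 and EPAS1 at 0.11. ARNT was at -0.01 and PFKFB3 at -0.54, on the other side of 0.

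Genes that act with the members were looked at in the same fit, whose calls over all genes were 5.03% higher and 3.01% lower. Their lists too were chosen with earlier results of these data known, so the counts are a description. For VEGFA, the related ligand VEGFC (-0.19, limma adjusted p = 0.11) and the co-receptors NRP1 (-0.14) and NRP2 (-0.01) were tested, and 0 of 3 were called. For ADM, 0 of 2 genes tested were called. These were RAMP1, a relative of the partners of its receptor (0.32, limma adjusted p = 0.27), and PAM, the enzyme that amidates the peptide (0.10). The receptor gene CALCRL and its partners RAMP2 and RAMP3 were not among the genes tested. Of 15 mitophagy receptors and partners of BNIP3 and BNIP3L, 3 were called, 2 higher and 1 lower, and the median was 0.09. The autophagy receptor CALCOCO2 rose by 0.41 in log2, from 59.5 ± 7.41 to 79.2 ± 7.12 FPKM (SD, n = 3, with a limma adjusted p of 0.041), and GABARAP, which binds such receptors, from 207 ± 5.86 to 245 ± 12.3 FPKM (0.24, adjusted p = 0.031). The receptor SQSTM1 fell from 199 ± 2.28 to 167 ± 6.74 FPKM (-0.25, limma adjusted p = 0.020), while BCL2L13 (0.29) and NIPSNAP1 (0.27) were not called.

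Of 9 demethylases related to KDM3A, 1 rose, KDM4A, by 0.39 in log2 from 12.1 ± 0.981 to 16.2 ± 1.25 FPKM (SD, n = 3, with a limma adjusted p of 0.036), and 8 were not called, JMJD1C (0.14), KDM5C (0.13) and KDM2B (0.13) among them. Of 14 collagen-modifying enzymes and related genes 0 were called, with PLOD3 at -0.20, PLOD2 at -0.16, PLOD1 at 0.12 and COL4A1 at 0.22. SGK1, a kinase that phosphorylates NDRG1, fell from 23.6 ± 0.70 to 17.2 ± 0.523 FPKM (-0.44, limma adjusted p = 0.0082), and NDRG3 (0.22) and GSK3A (0.10) were not called. The call of SGK1 held with any 1 library left out. KDM4A, GABARAP and SQSTM1 lost theirs without any library but AZD0095 replicate 1, and CALCOCO2 without DMSO replicate 2 or 3 or AZD0095 replicate 2. The adjusted p then reached at most 0.16. Without the variance trend GABARAP and CALCOCO2 were not called. With replicate 1 as a batch, limma called 1660 of all 6777 genes. VEGFC (limma adjusted p = 0.028), PLOD3 (0.037), PLOD2 (0.042) and FUNDC1 (0.037) were then also called lower. COL4A1 (0.042), BCL2L13 (0.032), NIPSNAP1 (0.022), FKBP8 (0.017), PHB2 (0.033) and NDRG3 (0.012) were then called higher, and FUNDC1, FKBP8 and PHB2, of the mitophagy list, were named after their values were seen.

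Of 8 tested ATF4 and AP-1 factors, 4 rose and 0 fell, at a median of 0.28. Over all genes 5.03% were called higher and 3.01% lower. This list was chosen with earlier results of these data known, so nothing is read from these counts. CEBPB rose by 0.89 in log2, from 9.29 ± 0.304 to 18.0 ± 0.469 FPKM (SD, n = 3, with a limma adjusted p of 3.7e-04), and ATF4, a driver of the stress response that is known to act on VEGFA, from 199 ± 8.39 to 256 ± 6.34 FPKM (0.36, limma adjusted p = 0.0063). JUNB (0.48) and JUND (0.37) rose too, and CEBPG, named after its values were seen, was called higher with replicate 1 as a batch (adjusted p = 0.042). JUND lost its call without DMSO replicate 2 or AZD0095 replicate 2 or 3 (limma adjusted p of at most 0.09). Whether ATF4 acted on VEGFA in these cells was not tested.

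Over the 6 RNA libraries, the genes whose departures from their own DMSO mean were nearest to those of VEGFA were TEAD3, G0S2, SLC2A3, CEBPB and GTPBP2, with a root mean square difference of 0.08 to 0.10 on the log2 scale and Pearson's r of 0.974 to 0.983. TEAD3, a TEA domain transcription factor, went from 10.5 ± 0.711 to 19.9 ± 2.22 FPKM and G0S2, an inhibitor of fat breakdown, from 113 ± 1.59 to 199 ± 11.8 FPKM (SD, n = 3). Nearest to ADM were NCOA5, ARMC5, CYP1B1, SHISA2 and ADAMTS1, at 0.03 to 0.10 with r of 0.988 to 0.999. NCOA5, a nuclear receptor coactivator, went from 33.0 ± 1.27 to 16.1 ± 0.609 FPKM and CYP1B1, a cytochrome P450 enzyme, from 38.7 ± 1.71 to 17.7 ± 1.45 FPKM (SD, n = 3). The first principal component of these libraries, with 52.6% of the variance, separated the treatments. An r above 0.95 was reached by 204 genes with VEGFA and by 129 with ADM.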

How the data were processed

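The authors deposited FPKM values per gene for 6 RNA and 6 footprint libraries, in tables of 6785 genes with the same entries and no value below 1.002. The submitters' processing notes name STAR, Bowtie2, fastp and hg38, without roles. The counter, the annotation and the exact FPKM formula are not stated there. After removal of 8 repeated entries 6777 genes were tested. A filter of 1 on mean FPKM removed no gene, and log2(FPKM + 1) was compared with limma 3.58.1 (R 4.3.3) with a variance trend, RNA and footprints apart, two-sided, with Benjamini-Hochberg adjustment over all genes and a threshold of 0.05. Translational efficiency was the interaction of assay and treatment over all 12 libraries.

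Footprint depth was implied from FPKM steps: up to 233 genes shared a ratio between footprint library pairs and at most 12 between RNA pairs, so RNA depth stayed unknown. Implied reads per kilobase are FPKM scaled back by implied depth, and cover counting error only. The scripts were tested on simulated data. Members and lists were chosen with earlier results of these data known. Named in the text are the members, list genes called or among the 4 largest changes of their list, and the 5 nearest patterns to VEGFA and to ADM.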

Additional observations from a re-analysis of the deposited data

How the results depend on the processing

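RNA and footprint results were recomputed under 16 alternatives, efficiency results under 22 and the VEGFA to ADM footprint ratio under 10. The RNA log2 changes of VEGFA (0.79 to 0.96) and ADM (-1.07 to -0.92) kept their direction; that of ADM was -0.92 with a pseudocount of 5, which shrinks changes by construction. Footprint changes stayed not called, with VEGFA at 0.36 to 1.27, ADM at -1.35 to -0.53 and KDM3A at 1.28 to 2.13, and BNIP3L ran from -0.25 to 0.042 with 1 library left out, above 0 without AZD0095 replicate 1. The AZD0095 minus DMSO difference of the log2 VEGFA to ADM footprint ratio stayed above 0, at 0.89 to 1.87.

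RNA calls numbered 1660 with replicate 1 as a batch, 1395 from replicates 2 and 3 only and 100 to 1112 with 1 library left out, against 545; HIF pathway calls were 16, 15 and 3 to 11, against 7. The cause was not tested. Same-numbered RNA libraries deviated together at r = 0.62, 0.09 and 0.49 and footprint libraries at 0.01, -0.02 and 0.09. Numbers 1 and 3 thus shared deviations in RNA, while not every RNA library correlated best with its own number. The main fits did not pair libraries by number. With the replicate block RNA calls were 1622. HIF pathway calls were then 14, 9 higher and 5 lower, against 7 higher and 0 lower in the main fit. The difference of the log2 VEGFA to ADM footprint ratio with this block was 1.53 (exact sign-flip p = 0.25).

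Genes called in translational efficiency were 0 (578 at an unadjusted p under 0.05), 1 without a variance trend and 0 to 4 with 1 library left out. The efficiency change of VEGFA turned to 0.14 with replicates 2 and 3 only and ran from -0.50 to 0.41 with 1 library left out, that of ADM from -0.32 to 0.50. KDM3A had 0.751 to 2.61 implied reads per kilobase in the DMSO footprint libraries, so its values there rest on few reads.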
